A study of Mus musculus with 42 samples.

Results

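The transcripts described here are the 6 genes of the Myc network and of the miR-17-92 host gene that are listed by symbol in the deposited tables, namely Myc, Mir17hg, Max, Mxd4, Mxi1 and Mnt. They were selected by name from 13031 to 19755 genes listed per table, and all 6 were present in all 6 tables. Myc and Mir17hg were chosen from their levels in obese WT mice given RvE1, so that their values in that comparison are a description and carry no test. Livers of 42 male mice were sequenced, with 7 mice in each of 6 groups and 1 library per mouse. The library protocol is described as total RNA and the molecule label as polyA RNA, so that it is not settled from which fraction a non-coding transcript such as Mir17hg was read.

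All mice were on the C57BL/6J strain. The WT mice were littermates of the KO mice, in which ChemR23, the receptor encoded by Cmklr1, was disrupted by CRISPR/Cas9 editing in the whole animal. WT lean and KO lean mice ate a control diet with 10% of its energy as fat, and WT obese and KO obese mice ate a high fat diet with 60%, in both cases from 6 weeks of age for 15 weeks. These 4 groups received vehicle, a mixture of ethanol and PBS. WT obese+RvE1 and KO obese+RvE1 mice ate the high fat diet and received 300 ng of RvE1, an eicosapentaenoic acid derivative that binds ChemR23, by intraperitoneal injection on 4 consecutive days. Livers were taken on day 5 after at least 4 hours of fasting.

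Myc is a transcription factor that binds DNA as a heterodimer with Max and activates genes of ribosome biogenesis, metabolism and the cell cycle. Mxd4, Mxi1 and Mnt also pair with Max, bind the same E-box sequence and recruit corepressors, so that they compete with Myc for Max and for its sites. In the liver Myc is low at rest and is induced early after partial hepatectomy. Mir17hg is the long non-coding host transcript of the miR-17-92 cluster, a known transcriptional target of Myc, and its microRNAs repress regulators of growth and survival such as Bcl2l11.

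The mature sequences of the cluster are given because Mir17hg is read here only through its host transcript, and they show what that transcript carries. Sequences are from RefSeq on GRCm38, are written 5′ to 3′, and bases 2 to 8, the seed that pairs with target RNAs, are in capitals.
mmu-miR-17-5p: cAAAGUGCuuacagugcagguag
mmu-miR-20a-5p: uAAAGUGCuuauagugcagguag
mmu-miR-18a-5p: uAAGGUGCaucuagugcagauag
mmu-miR-19a-3p: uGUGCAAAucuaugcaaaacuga
mmu-miR-19b-3p: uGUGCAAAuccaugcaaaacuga
mmu-miR-92a-3p: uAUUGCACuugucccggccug
These arms fall into 4 seed groups. miR-17-5p and miR-20a-5p share the seed AAAGUGC, miR-19a-3p and miR-19b-3p share GUGCAAA, and miR-18a-5p and miR-92a-3p each have a seed of their own in the cluster. The 6 hairpins span 836 bases, chr14:115043671-115044506 on the plus strand.

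GENCODE places Mir17hg at chr14:115042879-115046727 as a lincRNA that contains all 6 hairpins. The RefSeq transcript begins 1511 bases farther downstream, with 4 hairpins upstream of it, 1 partly inside and 1 wholly inside. Which of these models was counted is not given in the sources used here, and mature microRNAs were not measured in these libraries. The other genes lie at chr15:61985391-61990374 on the plus strand (Myc), chr12:76937269-76962201 on the minus strand (Max), chr5:34173883-34187720 on the minus strand (Mxd4), chr19:53310518-53375810 on the plus strand (Mxi1) and chr11:74830920-74845725 on the plus strand (Mnt). All 5 are annotated as protein-coding.

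The E-box CACGTG, the preferred site of dimers that contain Max, was searched in the RefSeq promoter windows of the members, from 250 bases before to 50 after each start. The sequence is its own reverse complement, so 1 search covers both strands. It was present in the windows of Mxd4, Mnt and Max, which are shown with the E-box in capitals and 12 bases on each side.
Mxd4, chr5:34187912-34187941, minus strand: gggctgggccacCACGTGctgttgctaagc
Mnt, chr11:74830789-74830818, plus strand: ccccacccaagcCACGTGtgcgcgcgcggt
Max, chr12:76962234-76962263, minus strand: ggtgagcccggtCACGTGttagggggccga
The first base of the E-box lay at -219 from the start in Mxd4, at -123 in Mnt and at -3 in Max. It was not in the 3 windows of Mxi1, and the table has no window for Myc. The window of Mir17hg, set by the RefSeq start, lies within the hairpin cluster and not at the GENCODE start, so it is not read here as a promoter. Among all windows of this length, 2349 of 32851 (7.15%) held the sequence, and the letters alone do not show binding.

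Reads on listed genes ran from 15992525 to 43841120 per mouse, with a median of 24298289. Behind the values of single mice stood 30 to 1102 reads for Myc, 32 to 180 for Mir17hg, and between 167 and 3110 for the other 4 genes. Values are normalized counts, that is reads divided by the size factor of the library, and can be compared within a table only. Cmklr1 did not overlap between genotypes in the table of lean mice, with 40.8 to 114 in WT and 9.72 to 22.6 in KO. Hepatocyte markers were abundant in every group, with medians of their sum between 1133740 and 1527230. In the table of KO lean and WT lean mice, 6 of 6 listed Kupffer cell markers passed the test as higher in KO lean, and the range of their sum was 6385 to 13556 in KO lean against 2609 to 5997 in WT lean. With the number that begins a mouse's identifier as a random block, 0 of these 6 markers passed, and the genes called in the whole table fell from 2123 to 3. Kupffer cells are the resident macrophages of the liver, and in whole tissue a change in cell number and a change in RNA per cell cannot be told apart. Genes with over 6000 exonic bases had a median log2 difference of -0.14 in KO lean against WT lean mice, and genes with under 2000 had one of 0.16. In KO obese against KO lean mice these medians were 0.15 and -0.17.

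All 6 transcripts were detected in every mouse. In WT lean mice the median normalized count per kilobase of exon was highest for Max (162), followed by Mxi1 (107), Mnt (106), Mxd4 (96.6), Myc (44.8) and Mir17hg (22.1, or 33.4 per kilobase of the shorter RefSeq model). Max, with which Myc, Mxd4, Mxi1 and Mnt all pair, thus stood first in WT lean liver on this scale, and the 3 repressors lay close together. The order depends on the GENCODE exonic lengths, with 8483 bases for Mxd4 and 3598 for Max. Before division by length the median of Mxd4 (820) was above that of Max (583). The spread between mice also differed among the 6 genes. The coefficient of variation in WT lean mice was 97.0% for Myc, 38.8% for Mnt, 35.6% for Mir17hg, 23.9% for Mxi1, 15.4% for Mxd4 and 12.96% for Max.

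The first question was whether RvE1 given to obese WT mice moved Myc and Mir17hg, the comparison on which both genes were chosen. Myc ranged from 98.5 to 559 with a median of 215 in WT obese mice, and from 61.1 to 162 with a median of 96.5 in WT obese+RvE1 mice. All 7 mice given RvE1 lay below the median of the vehicle group and 4 of them below every vehicle mouse, so the groups overlapped. On the log2 scale RvE1 minus vehicle was -1.12 (SE 0.36), with means of 106 ± 33.9 and 271 ± 191 (SD, n = 7 each). The SD of the vehicle group, in which 2 mice lay at 522 and 559, was several times that of the RvE1 group.

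Mir17hg ranged from 65.6 to 113 with a median of 83.0 in WT obese mice, and from 36.7 to 63.8 with a median of 53.5 in WT obese+RvE1 mice. Here the groups did not overlap, and each of the 7 mice given RvE1 lay below each of the 7 vehicle mice. The log2 difference was -0.66 (SE 0.15). Identifiers of the RvE1 mice began with 30 or 7, and those of the vehicle mice with 22, 27 or 6. No such number occurred in both groups, and its part in the separation was not tested. The share of all genes whose groups also did not overlap is not given here, so how rare this separation was is not known. Of all 13085 genes tested in this comparison with limma, 0 (0%) passed an adjusted p under 0.1 in either direction, 795 had an unadjusted p under 0.05, edgeR called 1 and DESeq2 called 25. When limma treated mice of a shared number as a block, 147 genes had an unadjusted p under 0.05, and 0 passed. All these counts stand beside the members only as background, since this contrast chose Myc and Mir17hg.

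The remaining 4 genes were close to 0 in the same mice. The log2 difference was 0.01 (SE 0.12) for Max, 0.01 (SE 0.16) for Mnt, -0.06 (SE 0.13) for Mxi1 and 0.11 (SE 0.12) for Mxd4. Max ranged from 484 to 699 in WT obese and from 473 to 805 in WT obese+RvE1 mice. The 2 groups differed in their spread for Mnt, whose normalized counts ran from 293 to 803 with vehicle and from 408 to 529 with RvE1, and for Mxi1, with 643 to 1283 against 722 to 904.

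**Figure D1:**
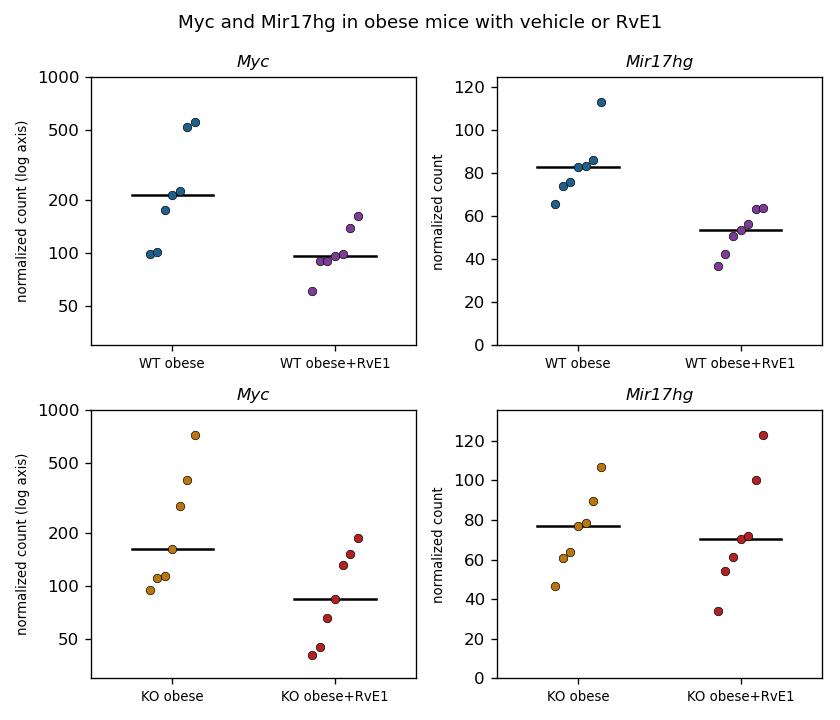
Normalized counts of Myc (left, log axis) and Mir17hg (right, axis from 0) in WT mice (top) and KO mice (bottom), obese with vehicle or with RvE1. Each point is 1 mouse (7 per group) and the bar is the median; Mir17hg lay between 36.7 and 63.8 in WT obese+RvE1 mice and between 65.6 and 113 in WT obese mice, with no overlap, while the KO groups overlapped.

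The same injections in KO mice, in which the receptor gene was disrupted, were tested with limma, since Myc and Mir17hg were not chosen on this comparison. The members were chosen with earlier results of these data known, so the tests here and below are not free of selection. Myc ranged from 95.02 to 723 with a median of 162 in KO obese mice, and from 40.6 to 188 with a median of 84.5 in KO obese+RvE1 mice. The log2 difference was -1.23 (SE 0.46), 6 of 7 mice given RvE1 lay below the vehicle median, and 4 lay below every vehicle mouse. The adjusted p was 0.557, so the difference did not pass. Its 95% interval, -2.21 to -0.25, was wide. Over the other settings and the removal of each mouse the adjusted p of Myc lay between 0.189 and 0.862.

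Mir17hg ranged from 46.6 to 107 in KO obese and from 34.2 to 123 in KO obese+RvE1 mice. The log2 difference was -0.07 (SE 0.25, adjusted p = 0.948), and both the highest and the lowest of the 14 mice had received RvE1. Max ranged from 571 to 668 in KO obese and from 366 to 629 in KO obese+RvE1 mice, with 6 of 7 mice given RvE1 below every vehicle mouse. Its log2 difference of -0.29 (SE 0.11) had an adjusted p of 0.557. Values for the repressors were 0.23 (SE 0.13) for Mxd4, -0.16 (SE 0.12) for Mxi1 and -0.17 (SE 0.19) for Mnt, with adjusted p-values of 0.607 or above. Thus 0 of 6 members passed, where 0 (0%) of 14207 genes tested passed in either direction. An unadjusted p under 0.05 was reached by 1179 genes, Myc and Max among them, and DESeq2 called 17 genes and edgeR 0, none of which was a member.

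The difference between the genotypes in the response to RvE1 is given as a value with its error, because it contains the WT comparison. For Myc the KO response minus the WT response was -0.12 (SE 0.62). This value was smaller than its error and changed sign, lying between -0.57 and 0.047 over the other settings and between -0.34 and 0.18 when 1 mouse was left out. For Mir17hg it was 0.59 (SE 0.30), and for Max it was -0.30 (SE 0.16). Differences for Mxd4, Mxi1 and Mnt lay between -0.18 and 0.12.

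High fat feeding in WT mice was compared next. Myc ranged from 70.7 to 745 with a median of 122 in WT lean mice, and from 84.0 to 476 with a median of 182 in WT obese mice. Neither group lay apart, the log2 difference was 0.02 (SE 0.57), and its 95% interval reached from -1.19 to 1.23. The highest value in WT lean mice was 10.5 times the lowest. Mouse 21R had 745, 21L had 589 and 19R had 325, whereas the 4 mice with identifiers beginning with 26 or 8 lay between 70.7 and 122. In WT obese mice the highest values were 476 in mouse 6RL and 446 in mouse 6R, and the third mouse with that number, 6L, had 182. The labels do not say what the numbers stand for.

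Mir17hg ranged from 55.8 to 140 in WT lean and from 56.0 to 96.6 in WT obese mice, with a log2 difference of -0.24 (SE 0.20, adjusted p = 0.5684). Max had a log2 difference of -0.14 (SE 0.12, adjusted p = 0.570), and Mxd4, Mxi1 and Mnt had differences between -0.03 and 0.03, all with adjusted p-values of 0.928 or above. With limma, 0 of 6 members passed in WT obese against WT lean mice, where 3.65% of 14012 genes tested passed as higher and 2.61% as lower. No member had an unadjusted p under 0.05 here, against 2545 genes in all, and edgeR and DESeq2 called none of the 6.

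**Figure D2:**
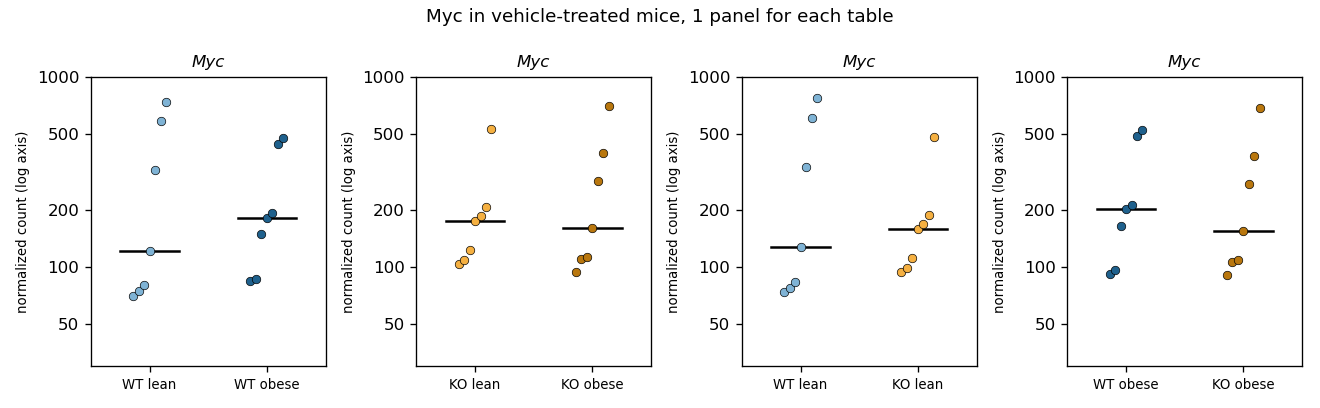
Myc in the vehicle groups, with 1 panel for each deposited table, since values can be compared within a table only. The vertical log axis gives normalized counts, each point is 1 of 7 mice and the bar is the median; within WT lean mice Myc spanned 70.7 to 745, more than the distance between any 2 medians.

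In KO mice on the high fat diet Mnt, Mxi1 and Max rose and Mxd4 fell, whereas Myc and Mir17hg did not pass. With limma, 3 of 6 members passed as higher, where 12.0% of 14213 genes tested did, and 1 of 6 as lower, where 12.1% did. In either direction 4 of 6 passed, against 24.1% of all genes. Because the members were chosen with earlier results of these data known, this count is not free of selection.

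Mxd4, which encodes the Max partner also called Mad4, ranged from 989 to 2349 with a median of 1132 in KO lean mice, and from 759 to 1000.6 with a median of 882 in KO obese mice. In KO obese mice 6 of 7 lay below every KO lean mouse, and the seventh, 31N, lay at 1000.6, just above the lowest KO lean mouse, 20R, at 989. The log2 difference was -0.55 (SE 0.17, adjusted p = 0.0375). In KO lean mice the value of mouse 20L, 2349, and that of 20-2L, 1597, stood above the other 5, which lay between 989 and 1199.

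Mnt, the Max-binding repressor that is expressed in most tissues, ranged from 163 to 653 with a median of 295 in KO lean mice, and from 357 to 667 with a median of 497 in KO obese mice. Without the highest KO lean mouse, 20R at 653, the other 6 lay between 163 and 336, below every KO obese mouse. The log2 difference over all mice was 0.72 (SE 0.24, adjusted p = 0.0525). Mnt was the only member to pass with a fold change above 1.5 (1.64-fold), a rule that 10.4% of all genes met.

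Mxi1 ranged from 511 to 906 with a median of 533 in KO lean mice, and from 655 to 1050 with a median of 737 in KO obese mice. All 7 KO obese mice lay above the KO lean median, and the highest KO lean mouse was again 20R. Mxi1 thus had a log2 difference of 0.37 (SE 0.14, adjusted p = 0.0807). Max ranged from 481 to 598 in KO lean and from 565 to 662 in KO obese mice, with 5 of 7 KO obese mice above every KO lean mouse. Its log2 difference of 0.21 (SE 0.08, adjusted p = 0.0947) was small and lay close to the threshold.

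Myc ranged from 104 to 531 with a median of 175 in KO lean mice, and from 94.0 to 709 with a median of 161 in KO obese mice. For Myc the log2 difference between the diets was 0.23 (SE 0.44, adjusted p = 0.758). Mir17hg ranged from 47.5 to 118 in KO lean and from 45.7 to 106 in KO obese mice, with a log2 difference of -0.17 (SE 0.21, adjusted p = 0.626). Both transcripts thus overlapped almost fully between the diets.

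These calls depended on single mice and on the design. Leaving out KO lean mouse 9L or KO obese mouse 31R left only Mxd4 past the threshold, at 1 of 6, and leaving out any of 14-2L, 14RL, 9RL, 10R, 23L or 31L left Mxd4 and Mnt, at 2 of 6. When the identifier number was fitted as a block, 0 of 6 passed, with adjusted p-values of 0.114 for Mnt, 0.135 for Mxd4, 0.141 for Mxi1 and 0.195 for Max. With this block 1057 of all 14213 genes tested passed. Scaling to equal totals raised the median log2 difference of all genes by over 0.1, to 0.14, turned the split of all calls from 1704 higher and 1718 lower to 2555 higher and 628 lower, and gave -0.40 for Mxd4 (adjusted p = 0.122). Of the listed Kupffer cell markers, 5 fell in the same comparison, and the part of cell content and of gene length in these differences was not tested.

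The comparison of KO lean with WT lean mice shares the KO lean mice with the comparison just described, so that they are not independent. Max ranged from 437 to 545 in KO lean and from 456 to 662 in WT lean mice, and all 7 KO lean mice lay below the WT lean median. Its log2 difference was -0.25 (SE 0.10, adjusted p = 0.122). Mxi1 had -0.42 (SE 0.17, adjusted p = 0.116), with KO lean values from 464 to 826 and WT lean values from 508 to 986. Mnt had -0.61 (SE 0.29, adjusted p = 0.187), with 148 to 595 against 216 to 653.

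Mxd4 had a log2 difference of 0.45 (SE 0.18, adjusted p = 0.117), with 901 to 2130 in KO lean and 645 to 1081 in WT lean mice. All 7 KO lean mice lay above the WT lean median of 852. Myc had -0.28 (SE 0.54, adjusted p = 0.775) and Mir17hg had -0.23 (SE 0.23, adjusted p = 0.547). By limma 0 of 6 members passed, where 8.00% of 13031 genes tested passed as higher and 8.30% as lower, and 4 members had an unadjusted p under 0.05, as 3488 genes did. DESeq2 called Mxd4, Max and Mxi1, and edgeR called Mxd4. Without WT lean mouse 8R, Max and Mxi1 passed, without 8RL, Mxi1 and Mnt, and without WT lean 19R or KO lean 14-2L, Mxd4. Equal totals lowered the median of all genes to -0.12, turned the split of all calls from 1042 higher and 1081 lower to 392 higher and 1753 lower, and brought Max (-0.37, adjusted p = 0.0403) and Mxi1 (-0.54, adjusted p = 0.0383) past the threshold with limma.

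KO lean mouse 20R stood apart from its group in this comparison too, with 826 for Mxi1 and 595 for Mnt, where the other 6 reached at most 603 and 305. Without it Max, Mxd4, Mxi1 and Mnt all passed, with adjusted p-values of 0.0692, 0.0606, 0.0253 and 0.0412, and the number of genes called in the whole table rose from 2123 to 3540. Its median deviation of long against short genes, 0.12, was the highest of the KO lean mice, and its summed Kupffer cell markers, 6394, were next to the lowest, 6385 in mouse 9RL.

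Between the obese genotypes no difference in these genes passed the test. Myc ranged from 92.4 to 525 in WT obese and from 91.1 to 691 in KO obese mice. The 6 log2 differences lay between -0.15 for Mir17hg and 0.13 for Mnt, each with an adjusted p of 1.00 after rounding, and 0 of 6 members passed where 0.0141% of 14162 genes did. No member had an unadjusted p under 0.05, against 319 genes in all, and edgeR and DESeq2 called none of the 6.

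**Figure D3:**
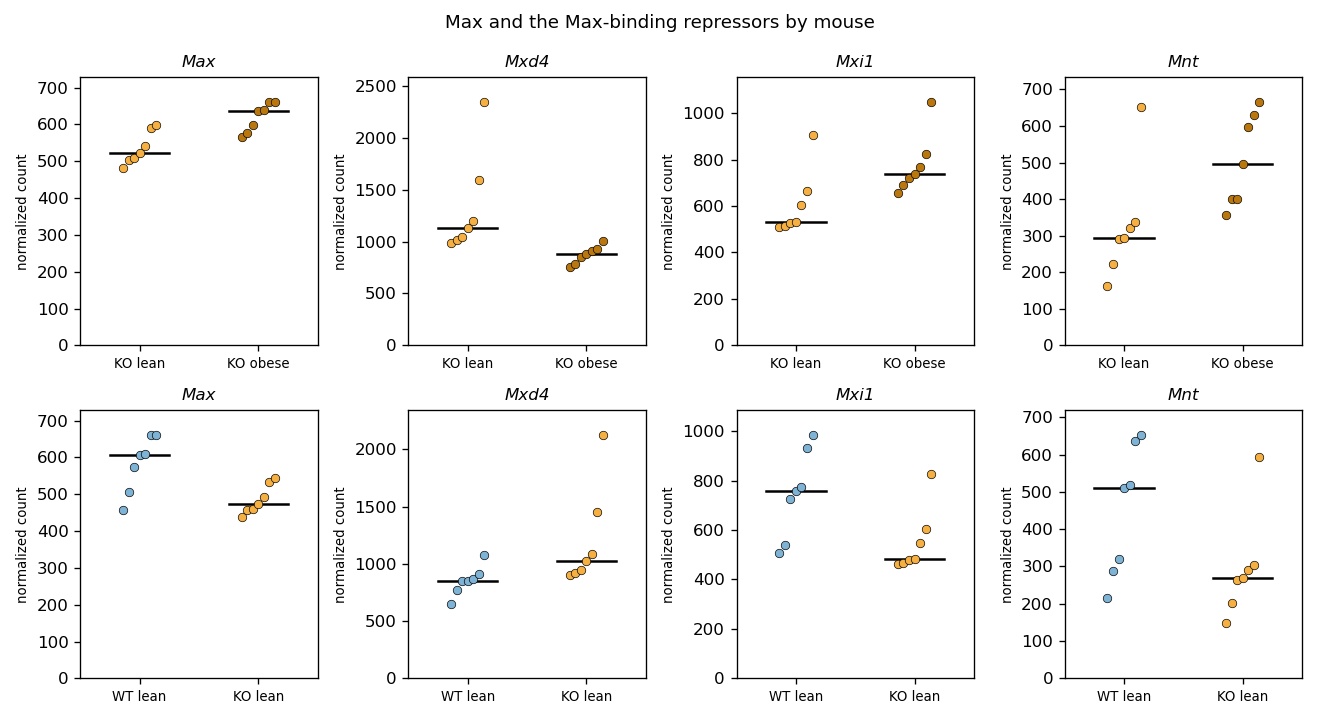
Normalized counts of Max, Mxd4, Mxi1 and Mnt by mouse in KO lean and KO obese mice (top) and in WT lean and KO lean mice (bottom), on axes from 0. Each point is 1 of 7 mice and the bar is the median; in the top row 6 of 7 KO obese mice lay below every KO lean mouse for Mxd4, and 1 KO lean mouse stood above its group for Mxi1 and Mnt.

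Whether the effect of diet differed between genotypes was tested as a difference of the 2 log2 differences with limma. The KO response minus the WT response was 0.35 for Max (SE 0.14, adjusted p = 0.176), -0.52 for Mxd4 (SE 0.21, adjusted p = 0.192), 0.74 for Mnt (SE 0.37, adjusted p = 0.284) and 0.34 for Mxi1 (SE 0.23, adjusted p = 0.446). It was 0.21 for Myc (SE 0.78) and 0.07 for Mir17hg (SE 0.30), with adjusted p-values of 0.923 and 0.929. Thus 0 of 6 members passed, where 0.00718% of 13924 genes did, 2553 genes had an unadjusted p under 0.05, edgeR called 1 gene and DESeq2 926, and no member was among either. A change in KO mice that passed the test was therefore not shown to differ from that in WT mice.

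**Figure D4:**
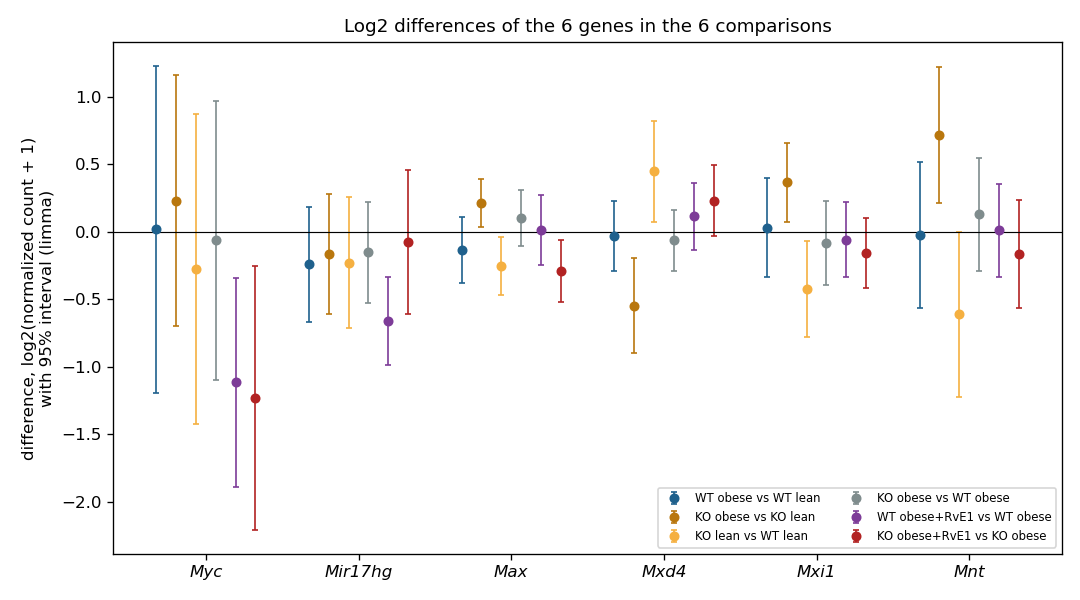
Log2 differences of the 6 genes in the 6 comparisons, on the vertical axis as differences of log2(normalized count + 1), with 95% intervals from limma as bars and 7 mice per group. The intervals of Myc were the widest, and those of Mxd4, Mxi1, Mnt and Max did not cross 0 in KO obese against KO lean mice, nor did those of the same 4 in KO lean against WT lean mice, of Myc and Max in KO obese+RvE1 against KO obese mice (none of which passed after adjustment) and of Myc and Mir17hg in the WT RvE1 comparison that chose them.

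The other genes of the pathway were taken from 7 lists of general knowledge. The calls in these lists rest on the fit without the identifier number. With that number as a random block, 0 genes of the 7 lists passed in KO lean against WT lean and in WT obese against WT lean mice. Those that passed in KO obese against KO lean mice were then 3 of 34 Myc-induced genes, 1 of 19 cofactors and turnover factors, 1 of 7 other network genes and 1 of 8 Myc-repressed genes. With the block 1057 of all 14213 genes tested passed in that comparison. Of all genes, 3 of 13031 passed with it in KO lean against WT lean and 279 of 14012 in WT obese against WT lean mice.

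Among 8 other network genes, 7 were tested in KO obese against KO lean mice. Of these 2 rose and 1 fell, where 12.0% of all genes passed as higher and 12.1% as lower. Mlxipl, which encodes the glucose-responsive factor ChREBP, had a log2 increase of 0.55 (SE 0.15, adjusted p = 0.0247), and Mga, a large Max partner with 2 DNA-binding domains, one of 0.40 (SE 0.16, adjusted p = 0.0869). Mlx, the partner of ChREBP, fell by 0.46 (SE 0.12, adjusted p = 0.0183). The median of the list was 0.17, against a median near 0 for all genes.

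In KO lean against WT lean mice 1 of 6 tested network genes was higher and 2 were lower, where 8.00% and 8.30% of all genes were. With 1 mouse left out, 0 to 1 were higher and 0 to 3 lower, fewest without WT lean mouse 21L. Mlx was 0.36 higher (SE 0.11, adjusted p = 0.0656), Mga had a difference of -0.54 (SE 0.15, adjusted p = 0.0482) and Mlxipl one of -0.48 (SE 0.15, adjusted p = 0.0661). In the other 4 comparisons 0 of 6 or 7 tested genes of this list passed.

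Cofactors and turnover factors of Myc were represented by 19 genes. In KO obese against KO lean mice 4 rose and 1 fell, that is 5 of 19 (26.3%), near the 24.1% of all genes that passed. Huwe1, a ubiquitin ligase of Myc, rose by 0.64 (SE 0.20, adjusted p = 0.0446), and Ep400, a chromatin remodeller, by 0.49 (SE 0.16, adjusted p = 0.0490). In KO lean against WT lean mice 5 were lower, where 8.30% of all genes were, and 1 was higher. Without WT lean mouse 21L or 26R or KO lean mouse 9L 0 passed here, without KO lean 14RL 2 did and without 20-2L 3 did, and in KO obese against KO lean mice 2 passed without KO obese mouse 31R. Huwe1 had a difference of -0.70 (SE 0.20, adjusted p = 0.0528), Ep400 of -0.56 (SE 0.16, adjusted p = 0.0535), Trrap, a scaffold of histone acetyltransferases, of -0.63 (SE 0.19, adjusted p = 0.0536), and Wdr5 of 0.35 (SE 0.12, adjusted p = 0.0904). The list median was 0.03 and -0.02 in these comparisons, and in the other 4 comparisons 0 of 19 passed.

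Of 35 genes that Myc is known to induce, 34 were tested in each comparison. In KO lean against WT lean mice 9 were lower and 0 higher, with a list median of -0.28 against a median near 0 for all genes, of which 8.30% were lower. The 9 were Nop58, Nolc1, Gnl3, Rrs1, Mybbp1a, Ncl, Polr1b, Fbl and Ppan. Without WT lean mouse 21L or KO lean mouse 9L 3 passed, without WT lean 26R 4 and without KO lean 20L 5, and without KO lean 20R 12 were lower and 2 higher. Nop58, a core protein of box C/D small nucleolar RNPs, had a mean of 195 ± 41.7 against 345 ± 79.0 (SD, n = 7 each) with no overlap, a log2 difference of -0.82 (SE 0.17, adjusted p = 0.0308). Nolc1, a nucleolar chaperone of these particles, had -0.73 (SE 0.16, adjusted p = 0.0340), and Gnl3, nucleostemin, had -0.55 (SE 0.12, adjusted p = 0.0340) with no overlap. The share of all genes whose groups also did not overlap is not given here, so how rare this was for Nop58 and Gnl3 is not known.

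In KO obese against KO lean mice 8 genes of this list rose and 2 fell, that is 10 of 34 (29.4%), near the 24.1% of all genes, with a list median of 0.17. Without KO obese mouse 31R 5 rose and 1 fell. Nolc1 rose by 0.58 (SE 0.11, adjusted p = 0.00617), Rrs1, a factor of ribosome assembly, by 0.41 (SE 0.10, adjusted p = 0.0186), and E2f1, a driver of S-phase genes, by 0.87 (SE 0.25, adjusted p = 0.0287). Ldha, lactate dehydrogenase A, fell by 0.81 (SE 0.21, adjusted p = 0.0207) and Cdk4 by 0.31 (SE 0.12, adjusted p = 0.0791). Nop58, Ncl, Ppan, Mybbp1a and Gnl3 were the other genes that rose. Myc itself did not pass in either comparison, and both contain the KO lean mice.

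In WT obese against WT lean mice 2 of 34 genes of the list rose and 2 fell, where 3.65% of all genes passed as higher and 2.61% as lower. Shmt2, the mitochondrial serine hydroxymethyltransferase, rose by 0.46 (SE 0.12, adjusted p = 0.0442) and E2f1 by 0.59 (SE 0.18, adjusted p = 0.0825), whereas Nop58 fell by 0.66 (SE 0.19, adjusted p = 0.0654) and Gnl3 by 0.53 (SE 0.17, adjusted p = 0.0973). The list median was -0.14. In KO obese against WT obese mice and in both RvE1 comparisons 0 of 34 passed, and the list median was 0.01, -0.08 in KO and -0.04 in WT mice, where Myc had its lowest log2 differences.

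Among 9 genes that Myc is known to repress, Cebpa, the hepatocyte factor C/EBPα, fell by 0.81 in KO obese against KO lean mice (SE 0.16, adjusted p = 0.00640) with no overlap, and was 0.69 higher in KO lean than in WT lean mice (SE 0.18, adjusted p = 0.0417). How many of all genes also did not overlap is not given here. Ndrg2 rose by 0.41 in KO obese mice (SE 0.13, adjusted p = 0.0512), Cdkn1c, the inhibitor p57, was 0.55 higher in KO lean than in WT lean mice (SE 0.19, adjusted p = 0.0862), and Ndrg1 fell by 0.92 in WT obese against WT lean mice (SE 0.20, adjusted p = 0.0199). No other gene of this list passed in any of the 6 comparisons by limma.

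Known targets of the miR-17-92 microRNAs were set beside the host transcript, which did not pass in any tested comparison. In KO obese against KO lean mice 3 of 13 rose and 0 fell, near the 24.1% of all genes that passed in either direction (12.0% as higher). These were E2f1, Bmpr2, a BMP receptor, by 0.76 (SE 0.24, adjusted p = 0.0434), and Rbl2, the pocket protein p130, by 0.31 (SE 0.12, adjusted p = 0.0883). In KO lean against WT lean mice Bmpr2 had -0.65 (SE 0.18, adjusted p = 0.0461) and Phlpp2, a phosphatase of Akt, had -0.44 (SE 0.14, adjusted p = 0.0697), and E2f1 was the only gene of the list to pass in WT obese against WT lean mice. With 1 mouse left out, 0 to 5 targets were lower in KO lean against WT lean mice, with 0 without WT lean mouse 26R. In WT obese against WT lean mice 0 passed without WT lean mouse 21L. In WT obese+RvE1 against WT obese mice, the comparison that chose Mir17hg, its log2 difference was the lowest of the 6 comparisons. There 6 of 13 targets had a log2 difference above 0 and 7 below, with a median of -0.04, and 0 passed. The targets below 0 were 11 of 13 in KO obese+RvE1 against KO obese mice (median -0.29), in WT obese against WT lean mice (median -0.19) and in KO lean against WT lean mice (median -0.26), and 2 of 13 in KO obese against WT obese mice (median 0.18). Mir22hg, 1 of 4 tested host genes of other microRNAs, fell by 0.42 in KO obese against KO lean mice (SE 0.16, adjusted p = 0.0768) and was 0.62 higher in KO lean than in WT lean mice (SE 0.14, adjusted p = 0.0340).

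Myc is itself an early response gene, so 10 immediate early genes were followed. In WT obese against WT lean mice Atf3 fell by 1.67 (SE 0.47, adjusted p = 0.0615) and Btg2 by 1.09 (SE 0.31, adjusted p = 0.0646), and all 10 had a log2 difference below 0, with a median of -0.91. Thus 2 of 10 passed as lower, where 2.61% of all genes did, and 0 passed without WT obese mouse 27-2L. All 10 were below 0 in KO lean against WT lean mice too, with a median of -1.17, and both comparisons contain the WT lean mice. For KO lean against WT lean mice Fosl2 had -1.36 (SE 0.42, adjusted p = 0.0598) and Atf3 -1.37 (SE 0.51, adjusted p = 0.0953), and in KO obese against KO lean mice Fosl2 rose by 0.84 (SE 0.30, adjusted p = 0.0701). Of all genes 8.30% passed as lower in the first of these comparisons and 12.0% as higher in the second. No gene of this list passed in the first without WT lean mouse 21L, or in the second without KO lean mouse 14-2L. In both RvE1 comparisons and between the obese genotypes 0 of 10 passed. No relation of their sum to Myc from mouse to mouse was tested. Among WT lean mice 21R, with the highest Myc, had the lowest sum of these genes (12498) and 8RL, with a Myc of 74.9, the highest (35759). Among KO obese+RvE1 mice 23-2L was the highest in both (Myc 188, sum 76588) and 15R the lowest in both (Myc 40.6, sum 5651).

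How the members varied together was asked over all 42 mice, after removing each group's mean on the log2 scale, and 5 relations with Myc were tested by permutation within groups. The permutations took the mice of a group as exchangeable and did not use the identifier number. Their p-values thus make no allowance for mice that share a number. Myc and Mnt had a Pearson r of 0.45 (permutation p = 0.0115, adjusted 0.0576) and a Spearman rho of 0.42 (permutation p = 0.0204, adjusted 0.102). Without the 2 mice farthest from the median of Myc, 21R and 10-2L, r was 0.46. That check kept KO lean mouse 20R, the highest of its group for both genes. Its log2 deviations from the group mean were 1.60 for Myc and 1.12 for Mnt, and r without it was not computed. Within groups the r of Myc and Mnt ran from -0.35 in WT obese+RvE1 mice to 0.88 in KO obese+RvE1 mice, over 7 mice each, and was above 0 in 5 of 6 groups. At an adjusted p of 0.1 the Pearson value passed and the Spearman value did not, and neither passed at 0.05.

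Myc and its target Mir17hg had an r of -0.19 (permutation p = 0.288, adjusted 0.480) and a rho of -0.11 (permutation p = 0.515, adjusted 0.643). Within groups r was -0.96 in KO lean, -0.64 in KO obese and -0.38 in KO obese+RvE1 mice, and lay between 0.23 and 0.34 in the 3 WT groups. The pooled value thus joins groups of opposite sign, which were not compared by a test. Myc had an r of 0.29 with Mxi1 (permutation p = 0.117, adjusted 0.293; rho 0.25, p = 0.167, adjusted 0.418), of 0.07 with Max (p = 0.665, adjusted 0.665; rho 0.05, p = 0.768, adjusted 0.768) and of -0.11 with Mxd4 (p = 0.498, adjusted 0.622; rho -0.16, p = 0.325, adjusted 0.542), all by permutation. Without the 2 mice these were 0.33, 0.03 and -0.14, and -0.19 for Mir17hg.

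Among the repressors Mnt and Mxi1 went together, with an r of 0.81 over the 42 mice that lay between 0.75 and 0.87 in each of the 6 groups. The values of a mouse share its library size factor, and the correlation is a description. Mxd4 had an r of -0.31 with Mnt and of -0.25 with Mxi1, and Mir17hg had -0.47 with Mxi1 and -0.38 with Mnt.

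Of 12742 genes tested in all 6 tables, those most like Myc over the 42 mice by Pearson r were 6430548M08Rik (0.74), Plekha2 (0.70), Sdc3 (0.69), Slc38a1 (0.69) and Cd68 (0.69), each above 0 in all 6 groups. Cd68 is a lysosomal glycoprotein of macrophages. Mnt ranked 469 for likeness to Myc and Mir17hg ranked 9088. The genes most like Mir17hg were Gas5 (0.77), the host transcript of several small nucleolar RNAs, Rbm3 (0.71), a cold-inducible RNA-binding protein, Rn4.5s (0.70), Fam92a (0.68) and Zfp58 (0.67), and Myc ranked 9460 of these genes.

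**Figure D5:**
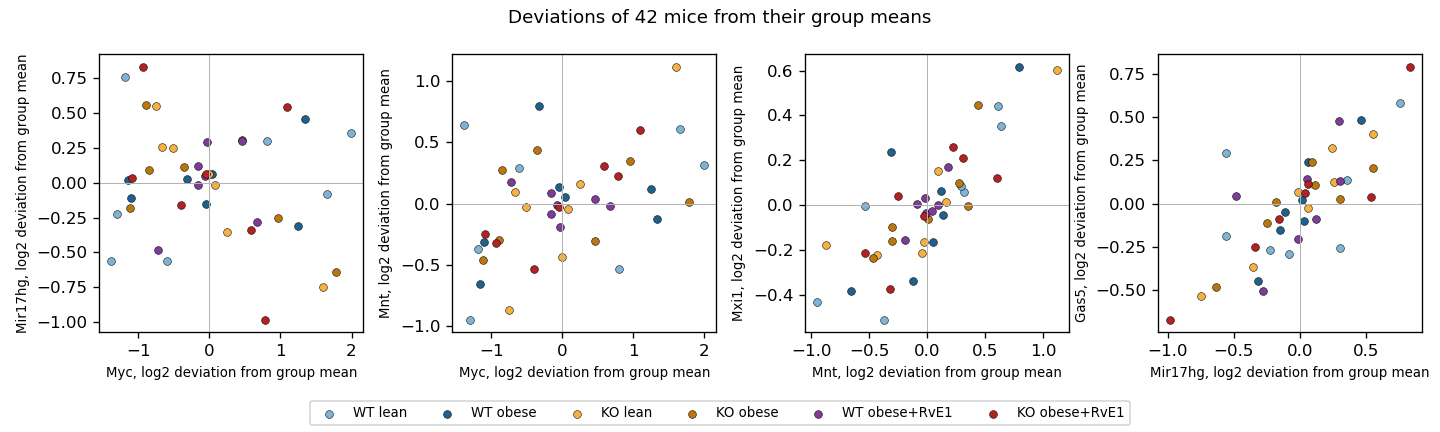
Deviations of each of 42 mice from its group mean, in log2 units on both axes, coloured by group, for Mir17hg against Myc, Mnt against Myc, Mxi1 against Mnt and Gas5 against Mir17hg. Points scatter without a shared direction for Mir17hg against Myc (r = -0.19), and rise together for Mxi1 against Mnt (r = 0.81) and Gas5 against Mir17hg (r = 0.77).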

How the data were processed

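Per the labels and the study's methods, whole livers were sequenced with a TruSeq stranded kit, reads were aligned to mm10 with Bowtie2, counted by featureCounts and normalized with DESeq2. Neither versions nor the counting annotation could be taken from these sources. The deposited signal values are read counts that the authors divided by DESeq2 size factors of the 14 libraries of each table. The tables also hold the authors' fold changes and p-values, which were not used. Whole reads were recovered from the values (100% within 0.1 reads).

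The main test was limma (3.58.1, trend, two-sided, R 4.3.3) on log2(normalized count + 1) for genes with a mean of at least 5, with Benjamini-Hochberg adjustment over all genes tested and a threshold of 0.1. Fold changes are on this scale, which understates changes of low genes. Alternatives were pseudocounts of 0.5 and 4, no filter, TMM and equal-total scaling, edgeR (4.0.16, quasi-likelihood) and DESeq2 (1.42.0) on recovered reads, library weights, a random block for the identifier number, an adjusted p under 0.05, a fold above 1.5, and removal of each mouse. Correlations used 100000 two-sided permutations within groups, without the identifier number. Fits were tested on simulated data, with larger changes than those of the members that passed and with mice drawn independently. That test does not cover smaller differences or mice that share an identifier number.

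The members, lists and tests were chosen with earlier results of these data known. Genes named from a list are the 3 with the smallest adjusted p in each direction, and the other Myc-induced genes that passed were named after their values were seen. Some genes that this rule names are counted with their list but not reported here by name. Those most like Myc or Mir17hg are the 5 with the highest r. Gene positions, exonic lengths (93.7% to 94.3% of tested names matched) and strands were read from GENCODE M21 (GRCm38, that is mm10). Each library carries its own identifier in the labels and was taken as 1 mouse; nothing else in the labels states that the mice were independent. The smallest chi-square per gene between 2 libraries of a group was 22.6 in 126 pairs, so all libraries were kept as separate.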

Additional observations from a re-analysis of the deposited data

Results flagged for a closer look

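In 36 sets of 7 mice (6 genes in 6 groups), 6 had a highest or lowest mouse whose gap to its neighbour, as a share of the range, passed Dixon's 95% critical value for 7 samples. Chance flags about 1 in 20 groups. KO lean mouse 20R was the highest of its group in 3 of them, Myc at 531 against 208 for the next mouse (gap share 0.757), Mxi1 at 906 against 663 (0.615) and Mnt at 653 against 336 (0.647). WT obese mouse 6RL was the highest for Mir17hg at 96.6 against 73.1 (0.579). KO obese mouse 23L was the highest for Mxi1 at 1050 against 824 (0.571). WT obese mouse 22L was the highest for Mnt at 685 against 433 (0.578).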

How the results depend on the processing

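Of the 6 members, 4 passed in KO obese against KO lean mice. The number was 0 with a random block for the identifier number, 1 with a fold above 1.5, 1 at the stricter adjusted p of 0.05, and 1 to 4 when 1 mouse was left out. In KO lean against WT lean mice 0 passed, but 2 with equal totals, 1 with edgeR, 3 with DESeq2, 4 with library weights, and 0 to 4 when 1 mouse was left out. In the other 3 tested comparisons the number was 0 under every alternative run. Library weights brought the diet by genotype differences of Max (0.44), Mxi1 (0.47) and Mnt (0.92) past the threshold and turned that of Mir17hg to -0.11. With 1 mouse left out the differences ran from 0.30 to 0.41 for Max, -0.58 to -0.37 for Mxd4 and 0.59 to 0.93 for Mnt, each past the threshold only without KO lean mouse 20R, from -0.12 to 0.48 for Myc and from -0.053 to 0.18 for Mir17hg. The correlation of Myc with equal totals was 0.40 with Max, 0.50 with Mxi1, 0.14 with Mxd4 and 0.01 with Mir17hg (0.00614). The causes of these shifts were not tested.

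Log2 differences that changed sign were near 0 or had wide intervals, and none had passed the test. In WT obese against WT lean mice Myc was -0.30 with edgeR, -0.31 with DESeq2 and -0.034 with the block, Mxd4 0.027 and Mnt 0.036 with equal totals, Mnt 0.052 with the block, and Mxi1 -0.063 with library weights. In KO obese against WT obese mice Myc was 0.01 with edgeR (0.0116) and 0.02 with DESeq2 (0.0219), and Mnt -0.02 with library weights (-0.0189). With 1 mouse left out, Myc ran from -0.21 to 0.35, Mxd4 from -0.094 to 0.032, Mxi1 from -0.075 to 0.10 and Mnt from -0.18 to 0.088 in WT obese against WT lean mice. Myc ran from -0.068 to 0.50 in KO obese against KO lean, from -0.54 to 0.055 in KO lean against WT lean and from -0.36 to 0.16 in KO obese against WT obese mice. Mxi1 ran from -0.16 to 0.019 in the last, and Mir17hg from -0.21 to 0.089 in KO obese+RvE1 against KO obese mice.

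No paired analysis was possible because the labels tie no mouse of a group to a mouse of another, and the groups compared share fewer than 2 identifier numbers. Depth limits single mice most at the low end, with as few as 30 reads for Myc and 32 for Mir17hg.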
